A study of Mus musculus with 9 samples.

Results

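The receptor tyrosine kinase gene Ret, the 4 genes of its GDNF family co-receptors (Gfra1, Gfra2, Gfra3 and Gfra4) and the ligand genes Gdnf, Nrtn and Artn were followed through the culture of embryonic mouse lung cells as pneumospheres. These 8 genes, of 27179 in the deposited table, were chosen by name, with their measured levels in the same libraries already known. Their changes between days are therefore given as a description, with standard errors and without p-values. Pneumospheres are cell clusters that grow in suspension from dissociated lung. The cells came from C57/B6 embryos at E11.5. Mesenchymal cells were reduced by letting them attach to plastic, and the unattached cells went into low-attachment wells, with splits on days 3 and 7. RNA with poly(A) tails was sequenced from 3 libraries on day 3, 3 on day 7 and 3 on day 10. All libraries share strain, stage and medium, which held basic FGF, EGF, heparin, B27 and ITS, with no GDNF family ligand named among its additives, under 10% CO2 and 5% O2. No treatment is labelled, and whether replicates were separate cultures or litters is not stated, so their spread may be partly technical.

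GDNF family ligands signal through a complex of RET and a GFRα co-receptor, which is held in the membrane by a lipid anchor and binds the ligand. GDNF binds preferentially to GFRα1, neurturin (Nrtn) to GFRα2, artemin (Artn) to GFRα3 and persephin (Pspn) to GFRα4. In the mouse embryo this pathway is known for the migration and survival of neural crest cells that build the enteric and other autonomic ganglia, and for branching of the ureteric bud in the kidney, and lung ganglia also derive from neural crest cells.

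The promoters of 3 ligand genes are shown because Nrtn lay lower and Artn higher on the later days, while Gdnf stayed near the limit of detection. Promoter entries matched 5 of the 8 genes (not Ret, Gfra2 or Gfra3). Each sequence is the 250 bases before an annotated start, in the direction of transcription, from RefSeq. The windows of Nrtn and Gdnf lie at the outer start of the gene, and that of Artn at a start inside the annotated gene span. Capitals before Gdnf mark the core of a TATA box, spelled TATAAA. Capitals before the other ligand genes mark the GC box GGGCGG, which before Artn lies on the opposite strand and appears as its complement.
Nrtn (GRCm38.p6, chr17:56757549-56757798, minus strand): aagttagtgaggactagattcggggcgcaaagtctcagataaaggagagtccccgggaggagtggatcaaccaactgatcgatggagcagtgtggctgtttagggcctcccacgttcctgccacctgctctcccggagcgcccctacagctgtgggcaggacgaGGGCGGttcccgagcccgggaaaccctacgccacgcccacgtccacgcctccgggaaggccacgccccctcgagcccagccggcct
Artn (GRCm38.p6, chr4:117929764-117930013, minus strand): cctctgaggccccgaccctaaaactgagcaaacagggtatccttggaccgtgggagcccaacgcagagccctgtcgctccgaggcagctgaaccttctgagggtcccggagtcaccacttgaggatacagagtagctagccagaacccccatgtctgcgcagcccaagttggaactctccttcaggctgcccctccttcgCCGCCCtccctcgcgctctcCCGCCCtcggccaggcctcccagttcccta
Gdnf (GRCm38.p6, chr15:7809798-7810047, plus strand): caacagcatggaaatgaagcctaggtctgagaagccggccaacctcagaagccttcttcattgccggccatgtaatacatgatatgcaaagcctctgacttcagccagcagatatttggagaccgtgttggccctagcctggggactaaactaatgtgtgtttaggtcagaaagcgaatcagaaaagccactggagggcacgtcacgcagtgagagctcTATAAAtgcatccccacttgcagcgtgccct

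Both strands were searched for these motifs and for the E-box, which reads the same on both strands and is not in capitals. No match overlapped one of another motif in these windows. TATAAA was present in the Gdnf window shown and in 12.4% of 32851 promoter windows of the same length. GGGCGG was present at 1 position before Nrtn, at 2 before Artn, at none before Gdnf, and in 32.7% of all windows. The E-box motif CANNTG stood at 3 positions before Nrtn, 2 before Artn and 1 before Gdnf, and in 66.2% of all windows. The GC content was 64.8% before Nrtn, 63.6% before Artn and 50.8% before Gdnf, against a median of 52.4% over all windows (quartiles 45.2% and 61.2%). CpG dinucleotides numbered 19, 13 and 7 in the windows of Nrtn, Artn and Gdnf, against a median of 6. Another annotated Gdnf window, at a start inside the gene (chr15:7813477-7813726), held no TATAAA and no GGGCGG, 1 E-box, 14 CpG dinucleotides and 46.8% GC. These matches describe the letters only.

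Library totals lay between 20716878 and 30466712 counts, so that 3 counts, the limit that a count of 0 allows, corresponded to 0.0985 to 0.145 CPM (counts scaled to the library total). Such limits and the counting intervals below cover counting error only. A pair of libraries stood apart. In day 3 replicate 2 an ID without a gene name held 6.79% of all counts, against 0.169% to 0.515% elsewhere. Day 10 replicate 3 had 72.7 CPM of Ntrk3, the receptor of neurotrophin 3, against 20.8 and 21.2 CPM in the other day 10 libraries, and also the highest Ret of that day. Lung epithelium was hardly detected: Nkx2-1, Foxa1 and Shh were at 0 in all 9 libraries, and Epcam averaged 0.599 CPM on day 3, 0.117 CPM on day 7 and 0.113 CPM on day 10. Summed over 8 epithelial markers the level was 2.37 to 3.79 CPM on day 3 and at most 0.296 CPM later. Sox2 was the largest part of the day 3 sum, at means of 1.89, 0.011 and 0.0133 CPM on days 3, 7 and 10. The 7 markers of lung mesenchyme, among them Vim and Col1a1, summed to 6070 to 6550 CPM on day 3, 13800 to 17000 on day 7 and 18800 to 21800 on day 10. Most of that sum came from the collagen genes Col1a1 and Col1a2, with means of 11700 and 6700 CPM on day 10 and 3860 and 1420 CPM on day 3. The transcription factors of the same list were lower on day 10 than on day 3, with Tbx4 at 1.89 and 12.4 CPM, Tbx5 at 6.96 and 48.7 CPM and Tcf21 at 4.24 and 11.2 CPM, all 3 called by edgeR. Genes of general mesenchyme were thus abundant, those factors of lung mesenchyme lower on day 10 than on day 3, and epithelial markers hardly detected. Markers of endothelium (71.1 to 90.7, 76.5 to 164 and 12 to 31.7 CPM on days 3, 7 and 10), of leukocytes (at most 3.66 CPM) and of erythroid cells (1040 to 1250, 4.47 to 6.13 and at most 0.4 CPM) completed the check. Kdr was the largest part of the endothelial sum, at means of 59.2, 91.8 and 12.8 CPM. Pecam1 averaged 3.17, 3.15 and 1.74 CPM, and Cdh5 6.25, 6.36 and 3.57 CPM.

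Ret and Nrtn, the genes of the receptor and of neurturin, were high on day 3 and low on day 10, whereas Gfra2, the gene of neurturin's preferred co-receptor, was higher on each later day. Gfra1 was lowest on day 7, Gfra4 and Artn were low and somewhat higher later, and Gdnf and Gfra3 were at or near the limit of detection. Of the 8 genes, 6 passed the filter on low counts. On day 10, 3 of these passed the edgeR threshold as higher than on day 3 (Gfra2, Gfra4 and Artn) and 2 as lower (Ret and Nrtn), where 29.5% of the 14940 genes tested were called higher and 27.2% lower. On day 7 against day 3, 2 were higher (Gfra2 and Artn) and 3 lower (Ret, Gfra1 and Nrtn), against 22.8% and 19.0% of all genes. Between days 10 and 7, 2 were higher (Gfra1 and Gfra2) and 2 lower (Ret and Nrtn), against 4.41% and 4.10%. Since the genes were selected on these levels, nothing is read from these counts. Calls of single genes among the 8 that are named below, kept or lost, likewise describe the fit and are no tests.

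**Figure D1:**
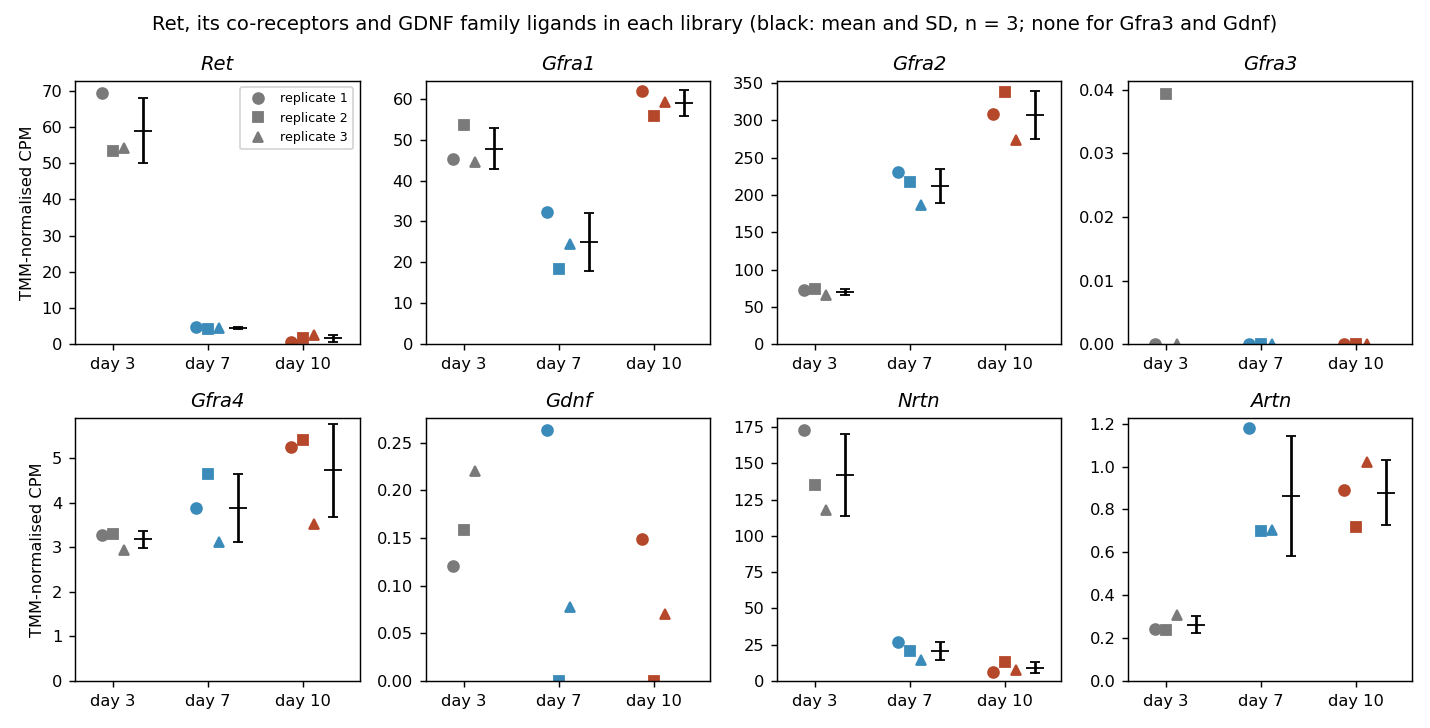
Level of each of the 8 genes (TMM-normalised CPM, linear axes that differ between panels) in the 3 libraries of days 3, 7 and 10; symbols mark replicates and black bars the mean ± SD, left out for Gfra3 and Gdnf with few counts. Ret and Nrtn are highest in every day 3 library and Gfra2 in every day 10 library, and Gfra1 dips on day 7.

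Ret encodes the signalling subunit, the tyrosine kinase (Entrez 19713, chromosome 6, 118151748 to 118197744, mm10). It stood at 69.3, 53.3 and 54.3 CPM in the day 3 libraries, at 4.84, 4.11 and 4.41 CPM on day 7, and at 0.744, 1.6 and 2.65 CPM on day 10. The days did not overlap: every day 7 library lay below every day 3 library and above every day 10 library. The day 7 mean was 4.45 ± 0.362 CPM and the day 3 mean 59.0 ± 8.98 CPM (SD, n = 3 each), a log2 change of -3.72 (SE 0.28). On day 10 the mean was 1.66 ± 0.953 CPM, a log2 change of -5.09 (SE 0.31) against day 3 and of -1.37 (SE 0.31) against day 7. The call of the change against day 7 was lost when any day 7 library or day 10 replicate 2 was left out. Ret thus held 7.55% of its day 3 mean on day 7 and 2.82% on day 10. In this bulk RNA, fewer cells that carry Ret and less Ret RNA per cell cannot be told apart. Day 10 replicate 3 had 75 counts of Ret, against 15 and 40 in replicates 1 and 2, and without it and day 3 replicate 2 the day 10 against day 3 change was -5.67.

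Gfra2, the co-receptor gene of neurturin (Entrez 14586, chromosome 14, 70890107 to 70979840), had 72.2, 73.4 and 65.5 CPM in the libraries of day 3, 231, 217 and 187 CPM on day 7, and 309, 338 and 274 CPM on day 10. Here too the days did not overlap, with day 3 lowest and day 10 highest. The log2 change was 2.13 (SE 0.11) on day 10 against day 3, and 1.59 (SE 0.10) on day 7 against day 3. From day 7 on it was smaller, at 0.54 (SE 0.10) on day 10 against day 7, a call lost without day 7 replicate 2.

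Gfra1, the co-receptor gene of GDNF (Entrez 14585, chromosome 19, 58235581 to 58455946), stood at 45.2, 53.6 and 44.5 CPM on day 3. On day 7 it had 32.4, 18.3 and 24.4 CPM, and on day 10 62, 55.8 and 59.1 CPM. All day 7 libraries lay below those of both other days, and the day 10 libraries lay just above those of day 3. The log2 change was -0.93 (SE 0.17) on day 7 against day 3 and 1.23 (SE 0.18) on day 10 against day 7. On day 10 against day 3 it was 0.30 (SE 0.17), which did not pass the threshold except with the 2 days alone.

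Gfra4, the co-receptor gene of persephin (Entrez 14588, chromosome 2, 131039632 to 131043088), was low throughout. It had 3.28, 3.31 and 2.95 CPM on day 3, 3.88, 4.65 and 3.12 CPM on day 7, and 5.26, 5.4 and 3.53 CPM on day 10. Day 7 overlapped with both other days, while the day 10 libraries lay above those of day 3, with a log2 change of 0.57 (SE 0.22). The edgeR call of that change was lost in 9 of 18 alternative analyses, among them those without any 1 day 3 library, day 7 replicate 1 or day 10 replicate 1 or 2. Gfra3, the co-receptor gene of artemin (Entrez 14587), had 1 count in day 3 replicate 2 and 0 in the other 8 libraries. No transcript of it was detectable at this depth on days 7 and 10, where a count of 0 allows up to the limit given above in each library.

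Annotated genes that overlap the co-receptor genes could share their reads. Of these, Gm10007 inside Gfra1 had 0 counts in all libraries. The others were absent from the deposited counts, so sharing of reads with them could not be checked.

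Among the ligands, Nrtn (Entrez 18188, chromosome 17, 56751323 to 56757548) had 173, 135 and 118 CPM on day 3. It had 27.1, 20.7 and 14.6 CPM on day 7 and 5.9, 13.2 and 7.69 CPM on day 10. The days did not overlap, although the lowest day 7 library and the highest day 10 library lay close together. The log2 change was -3.98 (SE 0.32) on day 10 against day 3, -2.77 (SE 0.30) on day 7 against day 3 and -1.21 (SE 0.31) on day 10 against day 7. The last call was lost when any library but day 7 replicate 3 and day 10 replicate 2 was left out. The mean was thus 14.7% of that of day 3 on day 7 and 6.29% on day 10.

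Artn (Entrez 11876, chromosome 4, 117925908 to 117930795) had 0.243, 0.237 and 0.309 CPM on day 3, 1.18, 0.7 and 0.702 CPM on day 7, and 0.893, 0.72 and 1.02 CPM on day 10. These levels rest on 19 counts on day 3, 71 on day 7 and 65 on day 10. All libraries of both later days lay above those of day 3, and days 7 and 10 overlapped. The log2 change was 1.73 (SE 0.36) on day 10 against day 3, 1.71 (SE 0.35) on day 7 against day 3 and 0.02 (SE 0.30) on day 10 against day 7.

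Gdnf (Entrez 14573, chromosome 15, 7810048 to 7837580) was counted 3, 4 and 5 times in the day 3 libraries, 8, 0 and 2 times on day 7 and 3, 0 and 2 times on day 10. It was too low for the model. The libraries of the 3 days overlapped, and 2 of 9 held no read. Summed by day, 12, 10 and 5 counts gave 0.165 CPM (0.0852 to 0.288, exact Poisson 95% interval) on day 3, 0.124 CPM (0.0597 to 0.229) on day 7 and 0.068 CPM (0.0221 to 0.159) on day 10. The ratio of day 10 to day 3 was 0.413 (counting interval 0.114 to 1.26), so that no difference was detectable at this depth.

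To compare genes with one another, CPM was divided by exon length (RPKM, which is CPM per kilobase of exon). On day 3 the order of mean levels was Nrtn (139 RPKM), Gfra2 (19.9), Gfra1 (8.73), Ret (8.72), Gfra4 (1.47), Artn (0.109), Gdnf (0.0453) and Gfra3. The libraries overlapped for Gfra1 and Ret alone among neighbours in that order. On day 7 the order was Gfra2 (59.9 RPKM), Nrtn (20.4), Gfra1 (4.57), Gfra4 (1.79), Ret (0.659), Artn (0.358) and Gdnf (0.031), with Gfra3 at 0 and overlapping only with Gdnf. On day 10 it was Gfra2 (86.8 RPKM), Gfra1 (10.8), Nrtn (8.75), Gfra4 (2.18), Artn (0.365), Ret (0.246) and Gdnf (0.0199), again with Gfra3 at 0. There Gfra1 and Nrtn, Artn and Ret, and Gdnf and Gfra3 overlapped. Nrtn was therefore at the head of the order on day 3 and Gfra2 on the later days, and Ret moved below Gfra4 on day 7.

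The co-receptor transcripts shifted in make-up on the RPKM scale. Gfra2 made up 66.1% ± 1.45 of the summed co-receptor level on day 3, 90.4% ± 1.21 on day 7 and 87.0% ± 1.16 on day 10 (SD, n = 3 each). Gfra1 made up 29.0% ± 1.55, 6.89% ± 1.66 and 10.9% ± 1.33 on the same days. The summed co-receptor level was 30.1, 66.3 and 99.6 RPKM, while Ret stood at 29.1 ± 4.71, 1.00 ± 0.102 and 0.255 ± 0.166 RPKM per 100 RPKM of co-receptor. Nrtn exceeded Ret by a ratio of 15.9 ± 1.27 on day 3, 30.8 ± 7.91 on day 7 and 42.1 ± 19.9 on day 10, with overlap between the later days. So the co-receptor sum was larger on each later day and the receptor smaller.

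**Figure D2:**
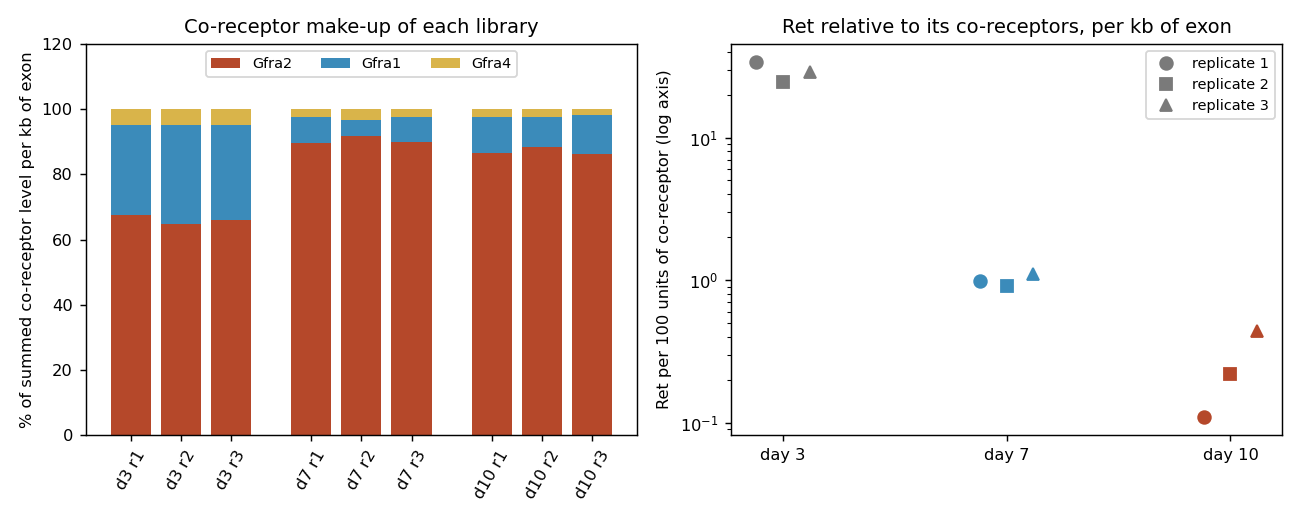
Left, share of Gfra2, Gfra1 and Gfra4 in the summed co-receptor level per kilobase (%), per library (d, day; r, replicate). Right, Ret per 100 units of co-receptor on a log axis, which lies between 24.6 and 34 on day 3, 0.91 and 1.11 on day 7, and 0.109 and 0.436 on day 10.

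Other genes of the pathway were taken from 4 lists, with 51 genes outside the 8 above. These lists were chosen with earlier results of these data known, so their counts and p-values are descriptive. Of these, 43 passed the filter and were tested with edgeR's quasi-likelihood test, with Benjamini-Hochberg adjustment over all 14940 genes. For day 10 against day 3, 14 rose, 12 fell and 17 did not pass the threshold, with a median log2 change of -0.12 against 0 over all genes, and called shares close to those of all genes (29.5% higher, 27.2% lower). On day 7 against day 3, 14 rose and 10 fell (22.8% and 19.0% of all genes), with a median of 0.04, and on day 10 against day 7 none rose and 6 fell (4.41% and 4.10% of all genes), with a median of -0.07. In that last comparison 7 were higher and 7 lower at an unadjusted edgeR p under 0.05, and DESeq2 called 4 higher and 6 lower. Against day 3, the called genes of these lists were split between both directions. Each comparison with day 3 uses the same day 3 libraries.

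Of 7 further ligand and receptor genes, 6 were tested, of which 3 rose and none fell by edgeR on day 10 against day 3. Among all genes 29.5% rose and 27.2% fell. Of the 6, 0 were lower also at an unadjusted edgeR p under 0.05 and by DESeq2. Gdf15, a distant relative of the family whose receptor GFRAL also signals through RET, had 10.7, 5.28 and 4.48 CPM on day 10, against 0.162, 0.237 and 0.0882 CPM on day 3, a log2 change of 5.32 (SE 0.45, edgeR adjusted p = 8.38e-06), and of 5.92 without both libraries that stood apart. Gfral itself was at 0 in all libraries. Gas1, a GFRα-related membrane protein, rose by 1.03 (SE 0.11) on day 7 and by 0.38 (SE 0.11, edgeR adjusted p = 0.0141) on day 10 against day 3. The day 10 call was lost without day 3 replicate 3 (adjusted p = 0.0531). Sdc3, syndecan 3, a heparan sulfate proteoglycan that binds GDNF, rose by 0.30 (SE 0.08, edgeR adjusted p = 0.00864), a call lost with library size alone or without the 2 libraries that stood apart (highest adjusted p = 0.0624). Pspn, the persephin gene, averaged 0.77 CPM on day 10 and 0.485 CPM on day 3 and did not pass (edgeR adjusted p = 0.112). Ncam1, the alternative GDNF receptor, averaged 14.8 CPM on day 10 and 18.3 CPM on day 3 and did not pass either (edgeR adjusted p = 0.312).

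Of 20 genes of RET adaptors and effectors, 19 were tested. On day 10 against day 3, 5 rose and 8 fell (29.5% and 27.2% of all genes). The largest called changes among those with a mean of at least 1 CPM were those of Ptprf, a receptor phosphatase that restrains RET, at -1.08 (SE 0.07, edgeR adjusted p = 1.26e-06), and Grb10, an SH2 adaptor, at -0.83 (SE 0.14). Next came Dok1, a docking protein, at 0.63 (SE 0.15), Gab1, a docking protein upstream of PI3 kinase, at -0.58 (SE 0.10), and Pik3r1, the regulatory subunit of PI3 kinase, at 0.57 (SE 0.07). The core adaptors moved little: Shc1 rose by 0.48 (SE 0.08) and Grb2 fell by 0.24 (SE 0.06). The call of Gab2 was lost without both libraries that stood apart, that of Plcg1 without day 3 replicate 2 or 3 or day 10 replicate 1 or 2, and that of Cbl without any library but day 3 replicate 1 and day 10 replicate 3.

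Of the RET targets known from the ureteric bud of the mouse kidney, 9 were tested. On day 10 against day 3, 3 rose, 2 fell and 4 did not pass. Among all genes 29.5% were called higher and 27.2% lower, so nothing is read from these counts. Myb, a transcription factor, had 0.843, 0.48 and 0.459 CPM on day 10, against 6.27, 5.72 and 9.35 CPM on day 3, a log2 change of -3.60 (SE 0.32, edgeR adjusted p = 1.1e-05). Wnt11, a Wnt ligand of ureteric tips, had 6.75, 4.12 and 5.19 CPM on day 10, against 31.6, 26.2 and 37.7 CPM on day 3, a log2 change of -2.58 (SE 0.23, edgeR adjusted p = 1.23e-05). The opposite direction was seen for Mmp14, a membrane-bound matrix protease, at 1.02 (SE 0.12) and for Spry1, an inhibitor of receptor tyrosine kinase signalling, at 0.97 (SE 0.11). The ETS factors Etv4 and Etv5, central RET targets of the kidney, changed by -0.25 (SE 0.14, edgeR adjusted p = 0.15) and 0.06 (SE 0.10, adjusted p = 0.634) and were not called. Dusp6, an ERK phosphatase, changed by -0.14 (SE 0.19, edgeR adjusted p = 0.56). Over the same days Ret was at 2.82% of its day 3 mean. Etv4, Etv5, Spry1 and Dusp6 are also targets of FGF signalling, and the medium held basic FGF; its part in these levels was not tested.

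Of 14 genes that regulate Gdnf in the mesenchyme of the embryonic kidney, 9 were tested. On day 10 against day 3, 3 rose and 2 fell (29.5% and 27.2% of all genes), shares close to those of all genes. Foxc2, a forkhead factor, rose by 1.95 (SE 0.16, edgeR adjusted p = 6.37e-06), Robo2, the receptor of SLIT2, by 0.70 (SE 0.09) and Eya1, a transcriptional cofactor and phosphatase, by 0.52 (SE 0.15). The Eya1 call was lost without day 3 replicate 2 (edgeR adjusted p = 0.0534). Slit2, which restricts the Gdnf domain, fell by 1.48 (SE 0.15, edgeR adjusted p = 2.62e-05) and Gdf11, a TGF-beta family ligand, by 0.49 (SE 0.10). Hoxa11, Hoxc11 and Hoxd11, which act upstream of Gdnf in the kidney, were at 0 in all 9 libraries, and Pax2 had at most 4 counts in a library.

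**Figure D3:**
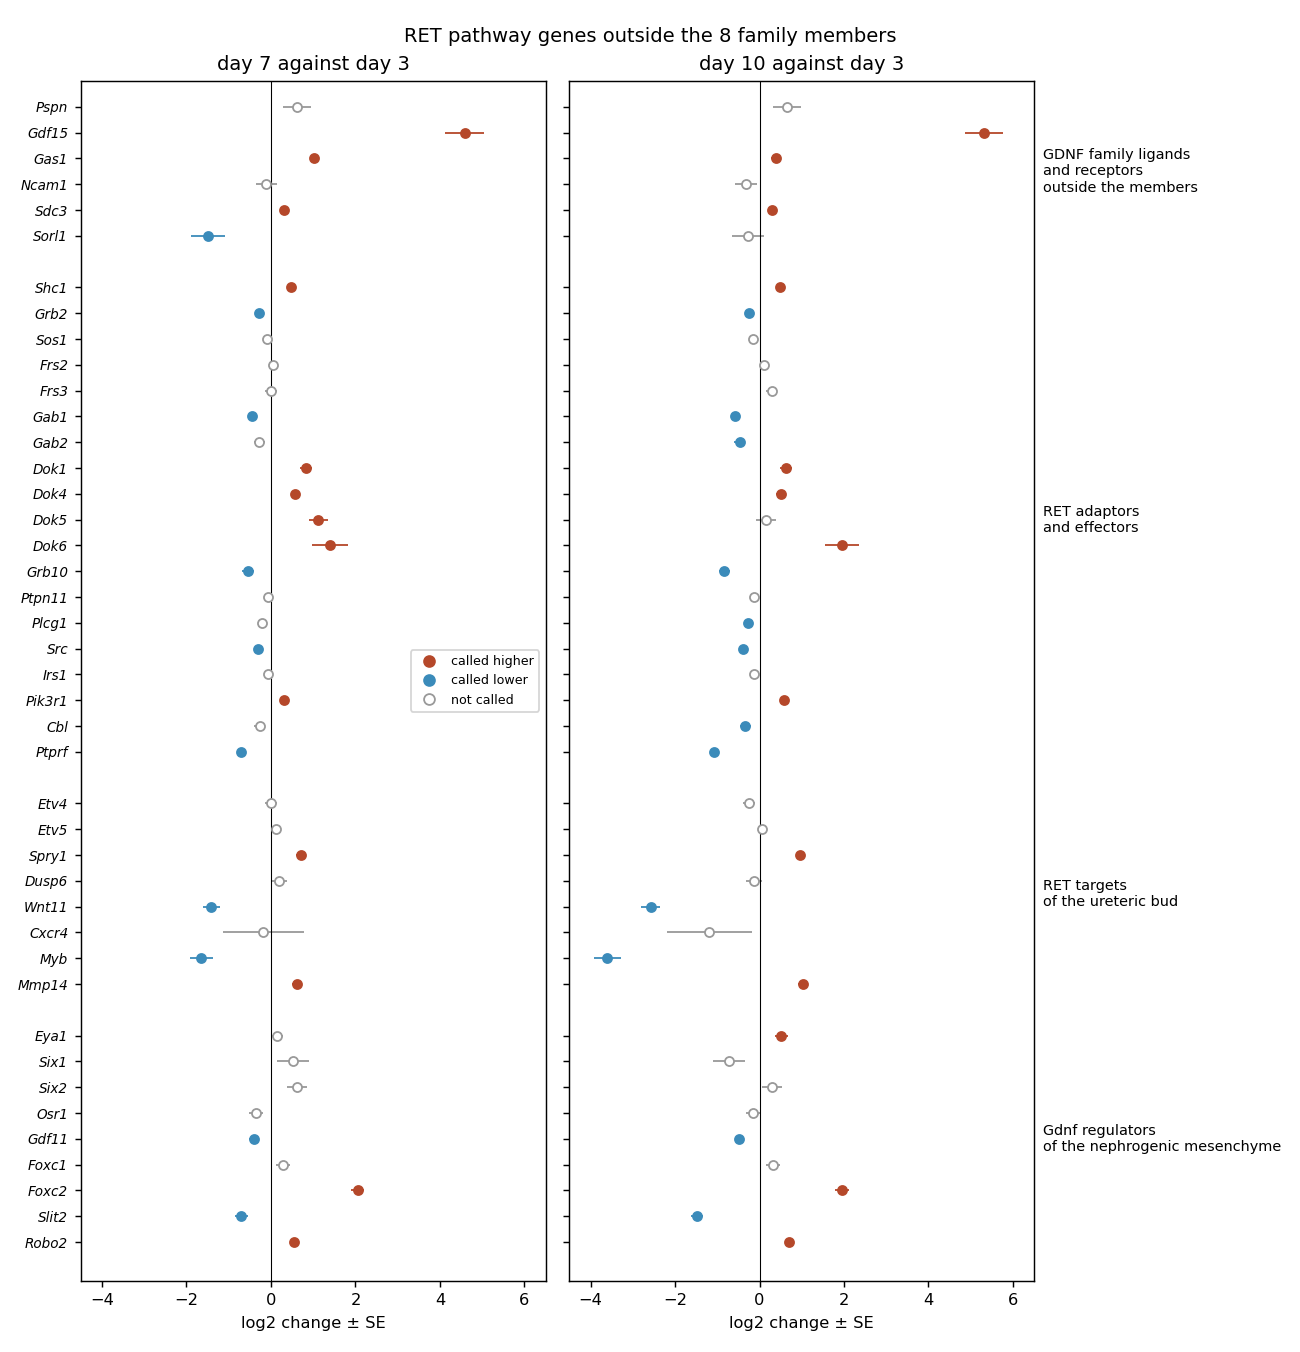
Log2 change ± SE of 42 of the 43 pathway genes outside the 8 family genes on day 7 and on day 10 against day 3, grouped by list; filled points passed the edgeR threshold (red higher, blue lower) and open points did not. Most changes are small and lie on both sides of 0, with Gdf15 at 5.32 and Myb at -3.60 on day 10 as the extremes.

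Markers of neural crest cells and neurons, the cell types best known for Ret in the embryo outside the kidney, changed in the same libraries. In 4 neural lists, 41 of 52 genes were tested, and on day 10 against day 3 30 fell, 6 rose and 5 did not pass the edgeR threshold. Their median log2 change was -3.79, against 0 over all genes, of which 27.2% fell. On day 7 against day 3, 26 fell and 6 rose (19.0% and 22.8% of all genes, median -2.12), and on day 10 against day 7, 14 fell and none rose (4.10% and 4.41% of all genes, median -0.89; at an unadjusted edgeR p under 0.05, 19 were lower and 2 higher, and DESeq2 called 17 lower and 0 higher). The neural lists too were chosen with earlier results of these data known. Their counts, medians and p-values, here and below, are therefore descriptive and no independent evidence. The part of these cells in the change of Ret was not tested.

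Neural crest and autonomic regulators held 13 tested genes, of which 10 fell and 2 rose on day 10 against day 3 (27.2% and 29.5% of all genes). Sox10, a factor of crest progenitors and glia, had 0, 0.12 and 0.0353 CPM on day 10, from 4 counts in all, and 3.32, 3.67 and 2.87 CPM on day 3. Its log2 change was -5.80 (SE 0.47, edgeR adjusted p = 6.33e-06), or -7.01 without day 10 replicate 2. The log2 change of Erbb3, a neuregulin receptor, was -5.29 (SE 0.67). It rests on 2, 0 and 2 counts on day 10, against 55, 71 and 44 on day 3. For Foxd3, a crest factor, there was 1 count on day 10 against 107 on day 3, so that day 3 exceeded day 10 by a ratio of 108 (95% counting interval 19 to 4310). Insm1, a neuroendocrine factor, had 3 counts against 180, a ratio of day 3 to day 10 of 60.6 (20.4 to 297). Ednrb, the endothelin receptor of enteric crest cells, fell by 3.83 (SE 0.39, edgeR adjusted p = 3.13e-05). In contrast Gata3 and Zeb2 rose, though the Zeb2 call was lost in 16 of 18 alternatives. The summed level of the list was 124 to 129 CPM on day 3, 68.5 to 84 on day 7 and 75.5 to 94.5 on day 10. Zeb2 alone averaged 60.8, 61 and 73.5 CPM on these days, so the sum says little of the genes that fell. Pax3, an early crest gene, was at 0 throughout.

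Genes of neuron structure and transmission numbered 14 among those tested, of which 13 fell and none rose on day 10 against day 3. Among all genes 27.2% fell and 29.5% rose. Of the 14, 0 were higher also at an unadjusted edgeR p under 0.05 and by DESeq2. The summed level of this list was 159 to 220 CPM on day 3, 33.4 to 49 on day 7 and 7.69 to 13.7 on day 10. Elavl3, a neuronal RNA-binding protein, changed by -6.66 (SE 0.50), Gap43, a growth cone protein, by -6.40 (SE 0.44), and Stmn2, a tubulin-binding protein of neurons, by -6.17 (SE 0.63, edgeR adjusted p = 3.77e-05). Without day 10 replicate 2, which held 21 counts of Stmn2 against 1 and 2 in the others, these 3 changes were -7.32, -7.19 and -8.48. The change of Elavl3 rests on 0, 3 and 2 counts on day 10, against 227, 169 and 141 on day 3. Elavl4, a relative of Elavl3, fell by 5.78 (SE 0.29, edgeR adjusted p = 4.14e-07). Dbh, the enzyme that makes noradrenaline, had 3 counts on day 10 against 201 on day 3, a ratio of day 3 to day 10 of 67.7 (counting interval 22.8 to 331). The sympathetic gene Th had at most 1 count in a library.

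Motor and sensory neuron genes were mixed, with 3 higher and 5 lower of 10 tested on day 10 against day 3 (29.5% and 27.2% of all genes). Lhx3, a LIM homeobox factor of motor neurons, changed by -7.95 (SE 0.59, edgeR adjusted p = 4.54e-06). This rests on 0, 0 and 4 counts on day 10, against 356, 430 and 283 on day 3, and without day 10 replicate 3, where day 10 holds no read, the fitted change of -11.5 is no bound. Mnx1, a defining motor neuron factor, was at 0 in all libraries. The neurotrophin receptor genes Ntrk2 and Ntrk3 rose by 2.98 (SE 0.41) and 2.99 (SE 0.57, edgeR adjusted p = 0.00187), the change of Ntrk3 being 2.13 without day 10 replicate 3. Slc5a7, the choline transporter, fell by 1.83 (SE 0.33). The summed level of this list was 74.4 to 82.8 CPM on day 3, 95.2 to 129 on day 7 and 106 to 173 on day 10. Ntrk2 and Ntrk3 averaged 30.1 and 38.2 CPM on day 10 and 3.82 and 4.83 CPM on day 3. The sum therefore does not describe the 5 genes called lower.

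Among 4 tested glial genes 2 fell and 1 rose on day 10 against day 3 (27.2% and 29.5% of all genes). Ngfr, the p75 receptor, which mesenchyme can also express, had 201, 309 and 119 CPM on day 10, against 451, 519 and 542 CPM on day 3, a fall of 1.27 (SE 0.28, edgeR adjusted p = 0.00394). The glial sum was 460 to 549, 145 to 192 and 129 to 320 CPM on days 3, 7 and 10, with Ngfr at means of 504, 161 and 210 CPM.

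**Figure D4:**
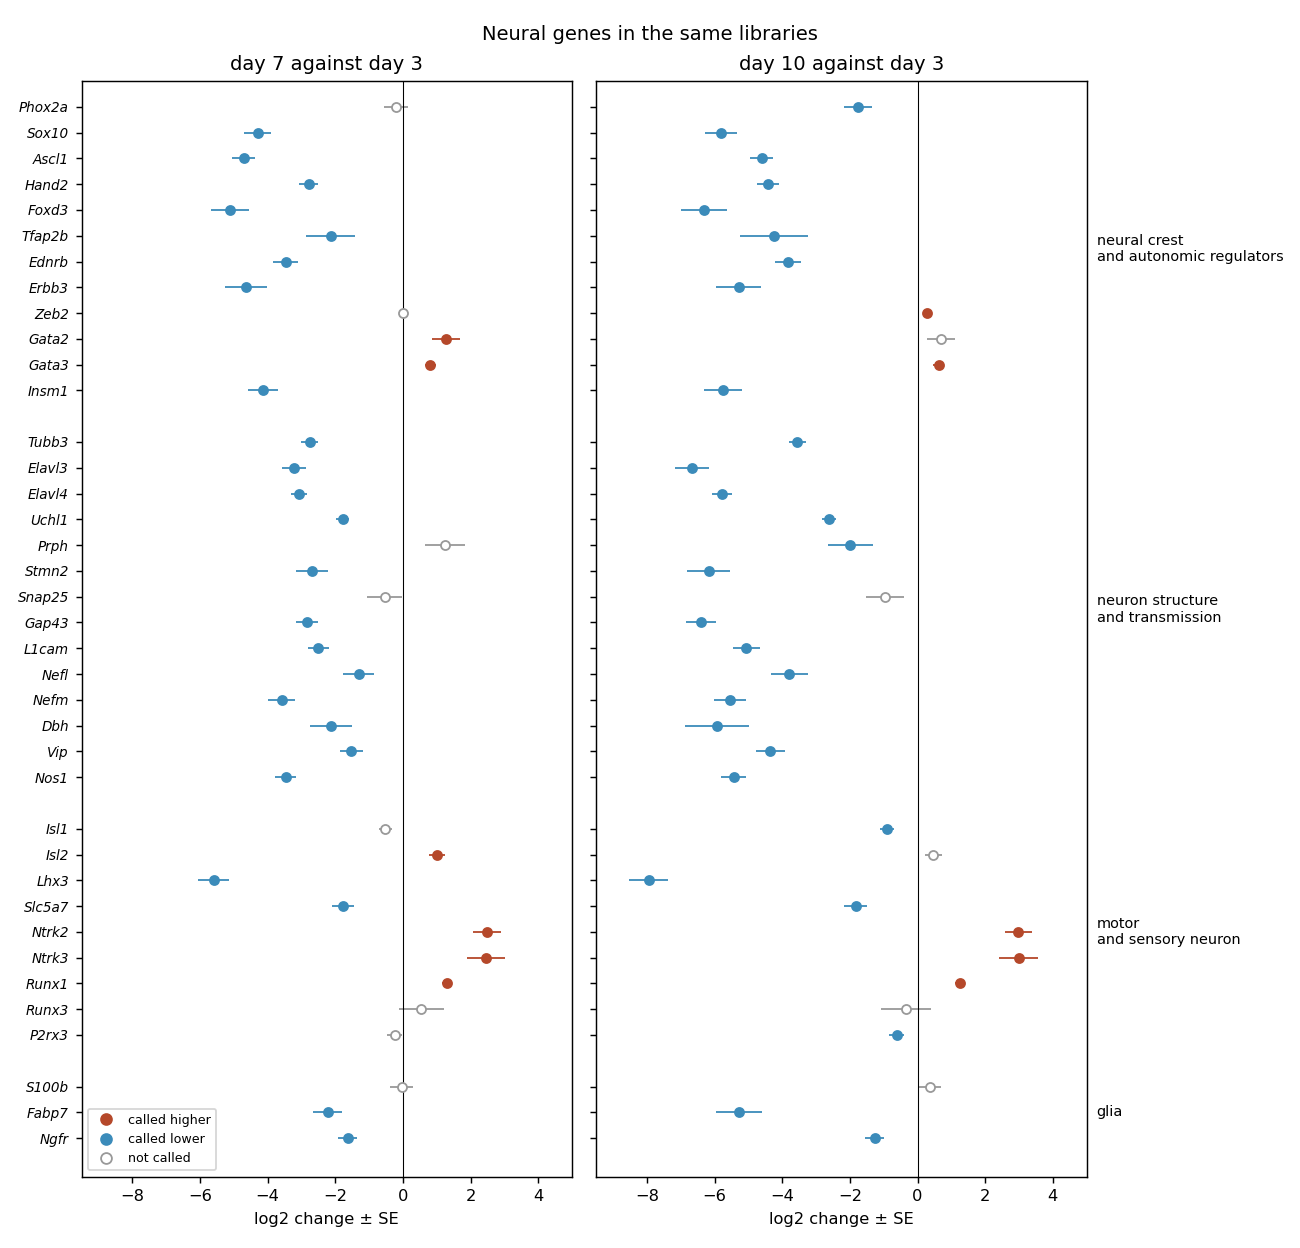
Log2 change ± SE of 38 of the 41 neural genes on day 7 and on day 10 against day 3, by list, with colours for the edgeR call (red higher, blue lower, open not called). Nearly all genes of neuron structure lie left of 0 on both days, and the changes of genes with 1 to 3 counts on day 10 (Foxd3, Tfap2b, Insm1, Dbh and Fabp7) are fitted values.

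The level left on day 10 did not follow 1 pattern across libraries. Ret had 15, 40 and 75 counts in replicates 1, 2 and 3, against 1, 21 and 2 counts of Stmn2. Ednrb had 6, 30 and 47 counts, which is the same order of replicates as for Ret. With so few counts these are descriptions of single libraries.

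By distance between centred log2 CPM values over the 9 libraries, the 5 genes nearest to Ret among 13109 searched were Nos1, Myt1, Sox10, Igfbp2 and Nefm. Pearson's r with Ret was 0.985, 0.983, 0.977, 0.987 and 0.974 in that order. These correlations describe 9 libraries from 3 days that share their depth and culture. The search left out the family genes, IDs without a gene name and genes with a mean under 1 CPM. A prior count of 2 was added before taking logs, which flattens differences among low counts. The fitted log2 change of Myt1 on day 10 against day 3 was -7.37, against -5.09 for Ret. Nos1, neuronal nitric oxide synthase, averaged 14.7, 1.32 and 0.329 CPM on days 3, 7 and 10. Myt1, a neural zinc finger factor, averaged 3.06, 0.189 and 0.0118 CPM, and Nefm, a neurofilament subunit, 19.2, 1.56 and 0.4 CPM. Igfbp2, a binding protein of insulin-like growth factors, averaged 162, 24.2 and 7.33 CPM on the same days.

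For Gfra1 the 5 nearest genes were Adamts6, Plxnc1, Tnik, Rgma and Mt2, at r of 0.942, 0.916, 0.929, 0.965 and 0.89. Plxnc1, a semaphorin receptor, averaged 67.2, 46.2 and 79.9 CPM on days 3, 7 and 10, with the day 7 dip of Gfra1. Gdnf was too low for such a search. For Gfra2 and Nrtn the search was added after their values had been seen. The nearest gene to Gfra2 was Stard13, a GTPase-activating protein (r 0.995), and Col1a2, a chain of type I collagen, was among the 5 (r 0.992), at 1420, 4500 and 6700 CPM on days 3, 7 and 10. Nearest to Nrtn was Stmn4, a neuronal stathmin (r 0.994), and Kif26b, a kinesin, at 101, 20.2 and 8.63 CPM, was also among its 5 (r 0.988).

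**Figure D5:**
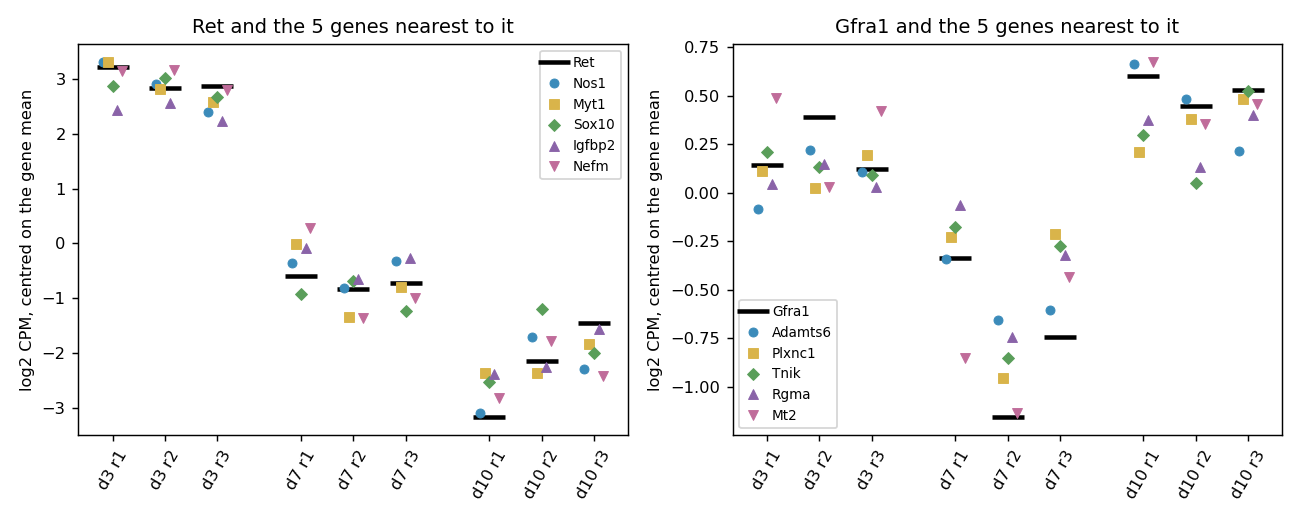
Log2 CPM of Ret (left) and Gfra1 (right), black bars, and of the 5 genes nearest to each, coloured symbols, centred on each gene's mean over 9 libraries (d, day; r, replicate). The Ret group is high on day 3 and low on day 10, and the Gfra1 group is lowest on day 7.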

How the data were processed

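The authors deposited read counts per gene (Entrez IDs) for 9 libraries, made with featureCounts against mm10, per the submitters' processing notes. Aligner, annotation, strand and multi-mapping settings were not given in the sources used here, so reads of overlapping and antisense genes could not be told apart. Of 27179 IDs, 25275 were named from RefSeq and 18 from GENCODE release M21. Genes kept by filterByExpr (14940) were fitted over all 9 libraries with edgeR 4.0.16 (TMM, robust quasi-likelihood, R 4.3.3, limma 3.58.1) and called at a Benjamini-Hochberg adjusted p under 0.05. Standard errors were derived from the F statistic of each log2 change. RPKM used merged exon lengths.

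The 8 genes and all lists were chosen with earlier results of these data known. Named list genes were up to 5 called genes per list with the largest change on day 10 against day 3 and a mean of at least 1 CPM on the higher day, and genes named for their role. Some genes of the lists enter the counts and are not reported by name here. Replicates of a day differed by more than counting noise (chi-square per degree of freedom 8.05 to 127). Alternatives were other scalings and filters, DESeq2 1.42.0, the 2 days alone, a replicate block and leaving out libraries.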

Additional observations from a re-analysis of the deposited data

How the results depend on the processing

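No change of Ret, Gfra1, Gfra2, Gfra4, Nrtn or Artn that had been called turned its direction in any of 18 alternatives (17 for Artn, which the filter at 1 CPM removed). On day 10 against day 3, Ret ranged from -5.67 to -4.78, Nrtn from -4.37 to -3.77 and Gfra2 from 2.04 to 2.23. On day 10 against day 7 the calls of Ret, Nrtn and Gfra2 were lost in 7, 11 and 2 alternatives. As stated above, calls of these genes describe the fit only. Counts of called genes for both comparisons with day 3 stayed within 1.5 times, for all genes and for both groups of lists. On day 10 against day 7, 1271 genes were called, but 2114 by DESeq2 and 290 with the 2 days alone, and 304 to 1548 when single libraries were left out. Of the 1271, 659 were higher and 612 lower, against 437 higher and 675 lower with library size alone. For the pathway, 6 genes were called, but 10 by DESeq2 (4 higher), 1 with the 2 days alone, 10 without the 2 libraries that stood apart, chosen after seeing the data, and 4 to 10 when single libraries were left out, the 10 without day 10 replicate 3. With DESeq2 size factors or upper-quartile factors 1 of 7 was higher. For the neural lists, 14 were called, but 4 with the 2 days alone, 8 without those 2 libraries and 8 to 13 without single libraries, where leaving out any day 7 replicate gave 8 or 9. Same-numbered libraries did not deviate together in every pair (r -0.0694 to 0.433 over 9 pairs, against -0.356 to 0.221 over 18 other pairs). Of 9 libraries, 6 correlated best with their own number, and the sample codes in the labels run on within each number. A pairing by number is thus possible but not labelled, and the main fit held no replicate block. With the replicate block 8565 genes were called on day 10 against day 3, against 8473 without it, and no count of calls moved by over 1.5 times. Among the changes given above, the block added a call of Ncam1 on day 10 against day 3 (edgeR adjusted p = 0.0436) and removed those of Zeb2 there and of Ret on day 10 against day 7. Depth limits Gdnf, Gfra3 and Artn.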
